A study of Homo sapiens with 18 samples.

Results

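In 556 windows of the genome chromatin was more open in both of 2 platinum-resistant ovarian cancer cell lines than in the sensitive line each was paired with. These members were chosen by measured values. A window on chromosomes 1 to 22 was taken where the mean of the 3 PEA2 libraries was over 1.5 FPKM and at least 2 times that of PEA1, and the mean of the 3 PEO4 libraries was over 1.5 FPKM and at least 2 times that of PEO1. FPKM is the number of fragments in a window per kilobase of DNA, scaled to the size of the library. The rule took 556 of the 86965 deposited windows on these chromosomes, or 0.639%. Every deposited window exceeds 2 FPKM in at least 2 of the libraries. All windows, as used below, thus means these already accessible windows and not the whole genome.

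Accessibility was measured by ATAC-seq, in which the Tn5 transposase inserts sequencing adapters into open DNA, in 3 libraries from each of 6 established human ovarian cancer cell lines. The lines formed 3 pairs. PEA1 (sensitive) and PEA2 (resistant) are lines from fluid of the abdomen (ascites) of 1 patient with high-grade serous ovarian cancer, the first sampled before any platinum was given and the second when the tumour had come back and no longer responded. PEO1 (sensitive) and PEO4 (resistant) were grown from another patient with the same disease after platinum treatment, the first before and the second after resistance appeared in the clinic. A2780 (sensitive) is an ovarian line that the labels describe as endometrial/ovarian, and CP70 (resistant) is a resistant derivative of it made in culture. All 6 lines were grown in the same medium and no drug is named for these libraries. Each line stands for 1 tumour or 1 selection, and nothing in the sources used here says that the 3 libraries of a line came from separate cultures, so the p-values below measure the spread between libraries, which may be technical.

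Open chromatin marks promoters, where transcription starts, and enhancers, which lie in introns or between genes and act on promoters at a distance. Transcription factors such as AP-1 and RUNX bind short DNA motifs in enhancers, and the set of open enhancers differs between cell types and cell states far more than the set of open promoters does. In platinum resistance, changes of open chromatin are of interest because tumour cells can alter gene regulation without a new mutation in the gene concerned.

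A stretch of 150 bases from 5 of the members is given here, read from the GRCh37 genome on the plus strand, because these are among the members with the largest gains and differ widely in base composition. Capitals mark matches to any of the 19 motifs searched (listed further on), on either strand. The stretch was centred on the AP-1 match nearest the window centre, or on the centre where the window had no AP-1 match. The first stretch, chr16:31488725-31488874, lies in the window over an exon of TGFB1I1 and holds an E-box match. The second, chr13:74864225-74864374, lies in the window classed to the promoter of the Y RNA pseudogene RNY1P5 and holds a nuclear receptor motif. The third, chr5:135416225-135416374, comes from the window over the start of the vault RNA gene VTRNA2-1 and holds a KLF/SP match. The fourth, chr2:129278418-129278567, lies between genes, 202 kb from the start of HS6ST1, and holds an AP-1 match that also completes an NRF2 match, beside a RUNX match. The fifth, chr1:6508325-6508474, lies in an intron of ESPN and holds TFAP2 and KLF/SP matches.
TGFB1I1 exon: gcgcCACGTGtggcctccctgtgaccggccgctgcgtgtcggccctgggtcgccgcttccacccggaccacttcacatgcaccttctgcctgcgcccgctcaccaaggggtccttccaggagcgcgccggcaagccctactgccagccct
RNY1P5 promoter: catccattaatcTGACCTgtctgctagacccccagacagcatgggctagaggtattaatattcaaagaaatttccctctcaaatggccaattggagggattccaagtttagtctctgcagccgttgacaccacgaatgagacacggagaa
VTRNA2-1 promoter: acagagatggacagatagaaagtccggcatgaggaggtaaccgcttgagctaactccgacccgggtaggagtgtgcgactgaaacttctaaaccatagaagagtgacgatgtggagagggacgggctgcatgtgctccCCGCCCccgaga
HS6ST1 intergenic: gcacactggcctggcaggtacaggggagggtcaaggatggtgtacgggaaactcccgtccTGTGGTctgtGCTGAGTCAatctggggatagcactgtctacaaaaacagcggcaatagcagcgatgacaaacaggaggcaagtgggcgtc
ESPN intron: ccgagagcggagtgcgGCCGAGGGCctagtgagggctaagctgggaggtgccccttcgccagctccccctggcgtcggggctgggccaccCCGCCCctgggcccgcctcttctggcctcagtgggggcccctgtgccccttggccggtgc
GC content of the stretches was 71.3% at TGFB1I1, 46% at RNY1P5, 56% at VTRNA2-1, 56.7% near HS6ST1 and 76% at ESPN. Only 1 of these 5 stretches held an AP-1 or RUNX match, and the window near HS6ST1 as a whole held 2 AP-1 and 4 RUNX matches.

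The libraries differed in depth and in how much of each library fell inside the windows of the table. Library totals, worked out from the value of 1 read, ran from 8963079 in a PEO1 library to 60435027 in an A2780 library. The windows held the smallest part of the A2780 libraries (8.38% to 10.0%) and the largest of the PEO1 libraries (38.9% to 40.8%), and PEO4 (32.9% to 35.9%) lay below its partner while PEA2 (17.1% to 20.7%) lay above PEA1 (12.8% to 16.8%). At the 556 members the median number of reads was 8 to 11 in the 3 PEO1 libraries and 48 to 59 in the PEO4 libraries, 14 to 23.5 in PEA1 and 39 to 55 in PEA2. Between 43 and 66 members held 3 reads or fewer in a PEO1 library, so a PEO1 level at such a window is known only within a wide counting error. Of the epithelial and serous ovarian markers looked up, MUC16 had no promoter window among the deposited ones, which exceed 2 FPKM in at least 2 libraries. Promoters of the others (KRT8, KRT18, EPCAM, CDH1, PAX8, WT1 and MECOM) were at 3.03 FPKM or more in both PEO lines, except MECOM in PEO4 (1.52). KRT8, for example, measured 7.34 FPKM in PEO1 and 11.8 in PEO4, and WT1 16.5 and 20.6. In A2780 and CP70 the same promoters were at 0.610 to 1.99, so the markers of these cell types were low there, and the PEA lines, at 1.01 to 4.10, overlapped that range.

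Few of the windows gained in 1 resistant line were gained in the other. With the same thresholds, 20243 windows (23.3%) were gained in PEA2 and 7633 (8.78%) in PEO4, and the 556 members were 2.75% of the first set and 7.28% of the second. By the mirrored thresholds for loss, 5904 windows were gained in PEA2 and lost in PEO4, 613 were lost in PEA2 and gained in PEO4, and 329 were lost in both. These are counts that the rule itself sets, and no test was made of them.

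**Figure D1:**
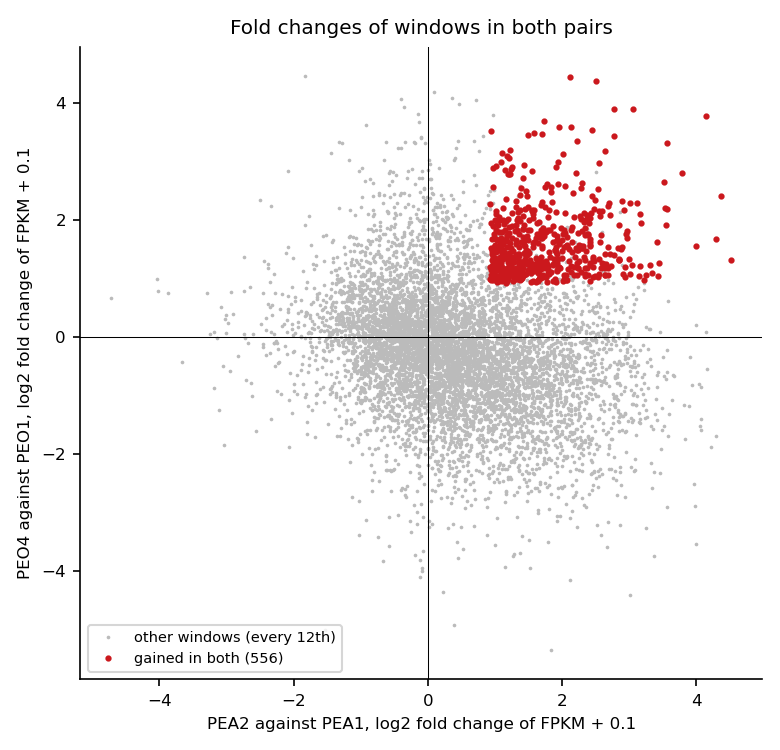
Each point is a window, placed by its log2 fold change of FPKM + 0.1 between PEA2 and PEA1 (x axis) and between PEO4 and PEO1 (y axis). The 556 members (red) fill the upper right corner by construction, and every 12th of the other windows (grey) is drawn, most of which lie below 0 on the y axis.

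At the members the sensitive lines were nearly closed and the resistant lines moderately open. The median level of the members was 0.719 FPKM in PEA1 and 2.49 in PEA2, and 0.901 in PEO1 and 2.81 in PEO4. Over all windows the medians were 1.22 and 1.79 for PEA1 and PEA2, and 2.83 and 2.24 for PEO1 and PEO4, so the members lay below the usual window in the sensitive line of both pairs. The sensitive line was itself over 1.5 FPKM at 38 members in PEA1 and at 143 in PEO1. In bulk libraries, a larger share of cells with an open window and more insertions per cell cannot be told apart.

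The median log2 fold change of FPKM + 0.1 was 1.57 between PEA2 and PEA1 and 1.42 between PEO4 and PEO1, and 170 and 114 members exceeded 2 on this scale. All 3 libraries of PEA2 lay above all 3 of PEA1 at 555 of the 556 members, where 41.5% of all windows do so. All 3 PEO4 libraries lay above all 3 PEO1 libraries at 555 members, where 22% of all windows do so. Both held at 554 members, and the share of all windows at which both hold was not counted. The rule used these libraries, so these counts describe its result and are not evidence of a change.

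The rule was also applied with a replicate of each line left out, and the libraries left out gave a less complete picture. They belong to the same lines and had been used by the full rule and by the filter of the table. They are thus no independent test. The rule was applied to replicates 2 and 3 of the 4 lines and took 549 windows, of which 338 (61.6%) also met it in the single libraries of replicate 1, where 0.862% of all windows did. Leaving out replicate 2 took 637 windows, of which 295 (46.3%) met the rule in the replicate 2 libraries against 0.599% of all windows. Leaving out replicate 3 took 549 windows, of which 320 (58.3%) met it in replicate 3 against 0.849% of all windows. PEA2 was above PEA1 in the held-out libraries at 547 of 549, 629 of 637 and 547 of 549 windows, and PEO4 was above PEO1 at 541, 629 and 544 of them. Over all windows PEA2 was above PEA1 in 61.0%, 53.4% and 67.7% of cases in the same libraries, and PEO4 above PEO1 in 39.7%, 39.3% and 39.3%. Between libraries of the same lines the direction thus held in nearly all windows and the full thresholds in fewer. The share was lowest for replicate 2, in which the median of PEA2 over all windows was 1.62 FPKM against 1.92 and 1.77 in the other PEA2 libraries, and the part of this shift in the lower share was not tested.

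Ranked by the smaller of its fold changes in both pairs, the first window lay in TGFB1I1 on chromosome 16, the gene of a focal adhesion adaptor with LIM domains (also called Hic-5) whose expression responds to TGF-beta. At chr16:31488300-31489300, over an exon 5.33 kb from the gene's start, PEA1 libraries measured 0.481, 0.374 and 0.24 FPKM and PEA2 libraries 10.3, 6.3 and 7.85. PEO1 libraries measured 0.708, 0.873 and 0.892 and PEO4 libraries 13.1, 12.6 and 11.9. The resistant libraries of both pairs stood far above their partners, with means of 8.14 ± 2 (SD, n = 3) in PEA2 and 12.6 ± 0.619 in PEO4, and log2 fold changes of 4.15 and 3.78. The surrounding 5 Mb had a median PEA log2 fold change of 1.28. With the 5 Mb medians removed, the smaller log2 fold change was 2.87 in place of 3.78. A2780 measured 0.608 to 0.827 and CP70 0.909 to 1.62, so both stayed near the level of the sensitive lines. The 2 neighbouring windows were members too, with PEA log2 fold changes of 2.45 and 3.79 and PEO log2 fold changes of 3.54 and 2.80. The window over the start of TGFB1I1 was not a member, since it went from 1.84 FPKM in PEA1 to 4.82 in PEA2 but measured 4.49 in PEO1 and 3.40 in PEO4.

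**Figure D2:**
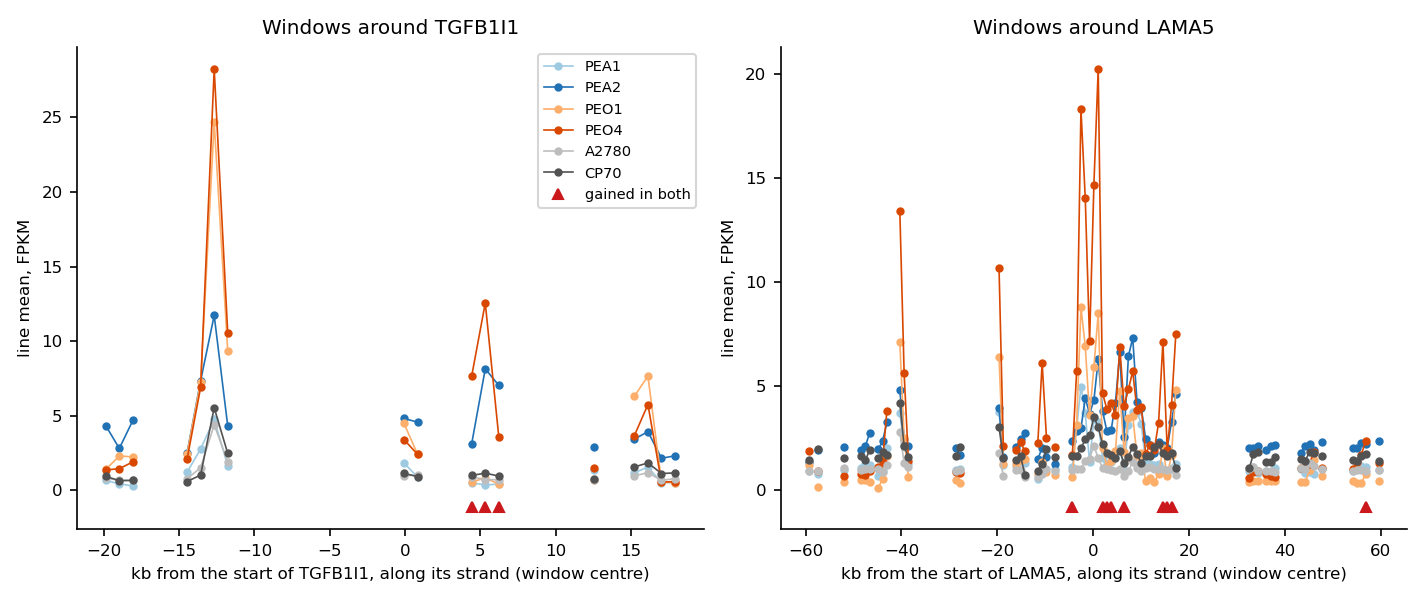
Line means in FPKM (y axis) of the table's windows are plotted by the distance in kb of the window centre from the start of TGFB1I1 (left) and LAMA5 (right), along the gene's strand, with red triangles under the members and lines joining adjoining windows only. At TGFB1I1 the 3 members rise in PEA2 and PEO4 to 12.6 FPKM at most while the other 4 lines stay low, and at LAMA5 the 9 members lie among 40 windows in which PEO4 is often high.

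The next members in this order lay in ZRANB3 and at small RNA genes. ZRANB3, which encodes a translocase that remodels stalled replication forks, had a member in an intron at chr2:135996300-135997300. PEA1 libraries measured 0.256, 0.0623 and 0.144 FPKM there and PEA2 libraries 3.85, 2.2 and 2.71, while PEO1 libraries measured 0.101, 0.0873 and 0.111, which is 1 read in each, and PEO4 libraries 1.86, 1.97 and 1.84. No library of a resistant line overlapped its partner, and A2780 and CP70 libraries were low as well (0.12 to 0.335). The member classed to the promoter of RNY1P5, a pseudogene of the small cytoplasmic Y RNAs, lay at chr13:74863800-74864800, 156 kb from the start of KLF12. PEA1 measured 0.481, 0.28 and 0.144 and PEA2 3.85, 2.72 and 3.15, and PEO1 0.101, 0.0873 and 0.111 and PEO4 2.91, 3.36 and 2.34. Here too the groups were apart in both pairs, and CP70 libraries held only 1 or 2 reads each. The member over the start of VTRNA2-1, a non-coding RNA gene that is imprinted and whose RNA binds the kinase PKR, lay at chr5:135415800-135416800, 51.6 kb from the start of the TGF-beta-induced gene TGFBI. PEA1 measured 0.673, 0.717 and 0.863 and PEA2 6.7, 4.57 and 5.99, and PEO1 0, 0.0873 and 0.223 and PEO4 2.85, 2.98 and 2.99. PEO1 held 0 to 2 reads per library at this window, too few to give the size of the PEO difference, while between PEA2 and PEA1 the log2 fold change was 2.78.

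Introns of SH3PXD2A, ESPN and SEMA6A followed. SH3PXD2A encodes TKS5, a scaffold of the invadopodia with which cells degrade matrix, and its intron at chr10:105506100-105507100 measured 0.481, 0.436 and 0.336 FPKM in PEA1 and 3.02, 3.47 and 2.88 in PEA2. In the PEO pair it measured 0.202, 0.175 and 0.334 in PEO1 and 3.02, 3.55 and 2.34 in PEO4. Both resistant lines were near 3 FPKM and neither overlapped its partner. ESPN encodes espin, which bundles actin filaments, and its intron at chr1:6507900-6508900 measured 0.577, 0.343 and 0.432 in PEA1 and 2.53, 3.53 and 3.37 in PEA2. The same intron measured 1.42, 0.873 and 1.56 in PEO1 and 9.82, 12.6 and 9.71 in PEO4, and 1.27 to 1.74 in A2780 and 1.97 to 2.18 in CP70. PEO4 was the most open line at this window and PEA1 the least. SEMA6A, a transmembrane semaphorin, had a member in an intron at chr5:115789500-115790500 where PEA1 measured 0.801, 1.31 and 0.671 and PEA2 7.09, 4.57 and 5.9. PEO1 measured 0.202, 0.436 and 0.78 there and PEO4 3.08, 3.46 and 3.14. The groups were apart, but the median PEA fold change of all windows in the surrounding 5 Mb was 1.90, and with that removed the smaller of the member's log2 fold changes was 0.63 in place of 2.54.

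The remaining members among the 12 largest lay in NECAB1 or far from genes. The intron of NECAB1, a calcium-binding protein, at chr8:91812600-91813600 measured 0.343 to 0.384 FPKM in PEA1 against 2.25 to 3.63 in PEA2, while the PEO1 libraries lay at 0.223 to 0.405 and the PEO4 libraries at 3.74 to 4.58. The intergenic window at chr2:129277800-129278800, 202 kb from HS6ST1, a sulfotransferase of heparan sulfate, measured 0.545, 0.841 and 0.527 in PEA1 and 10.2, 5.9 and 9.05 in PEA2. In the PEO pair it measured 0.405, 0.436 and 0.669 in PEO1 and 3.66, 3.41 and 3.94 in PEO4. It was the most open of the 12 in PEA2, and A2780 and CP70 together measured 0.53 to 1.38. The window at chr6:96084900-96085900, 59.99 kb from MANEA, a Golgi mannosidase, was instead the most open of the 12 in PEO4, at 13.2, 14.7 and 13.4 against 0.304, 0.611 and 0.78 in PEO1. In the PEA pair it measured 0.288, 0.187 and 0.575 and 2.69, 2.2 and 2.48, where the surrounding 5 Mb had a median log2 fold change of 1.36. The window 462 kb from the adhesion gene CADM1, at chr11:115836300-115837300, held 0.0959 to 0.288 in the PEA1 libraries and 4.97 to 7.53 in the PEA2 libraries, against 0.262 to 0.557 in those of PEO1 and 2.29 to 2.85 in those of PEO4. The window 133 kb from LRRN1, a leucine-rich repeat membrane protein, at chr3:3708000-3709000, measured 0.384 to 0.767 in PEA1 against 2.77 to 4.07 in PEA2, and its PEO1 libraries (0.785 to 1.34) lay below its PEO4 libraries (5.41 to 5.76). With the 5 Mb median removed, the smaller log2 fold change fell from 3.06 to 2.00 at RNY1P5 and from 2.51 to 1.14 near MANEA. It fell from 2.41 to 1.42 near LRRN1, from 2.64 to 1.85 in SH3PXD2A and from 2.56 to 1.98 at the ESPN intron. At all 12 windows every resistant library lay above every library of its partner in both pairs.

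**Figure D3:**
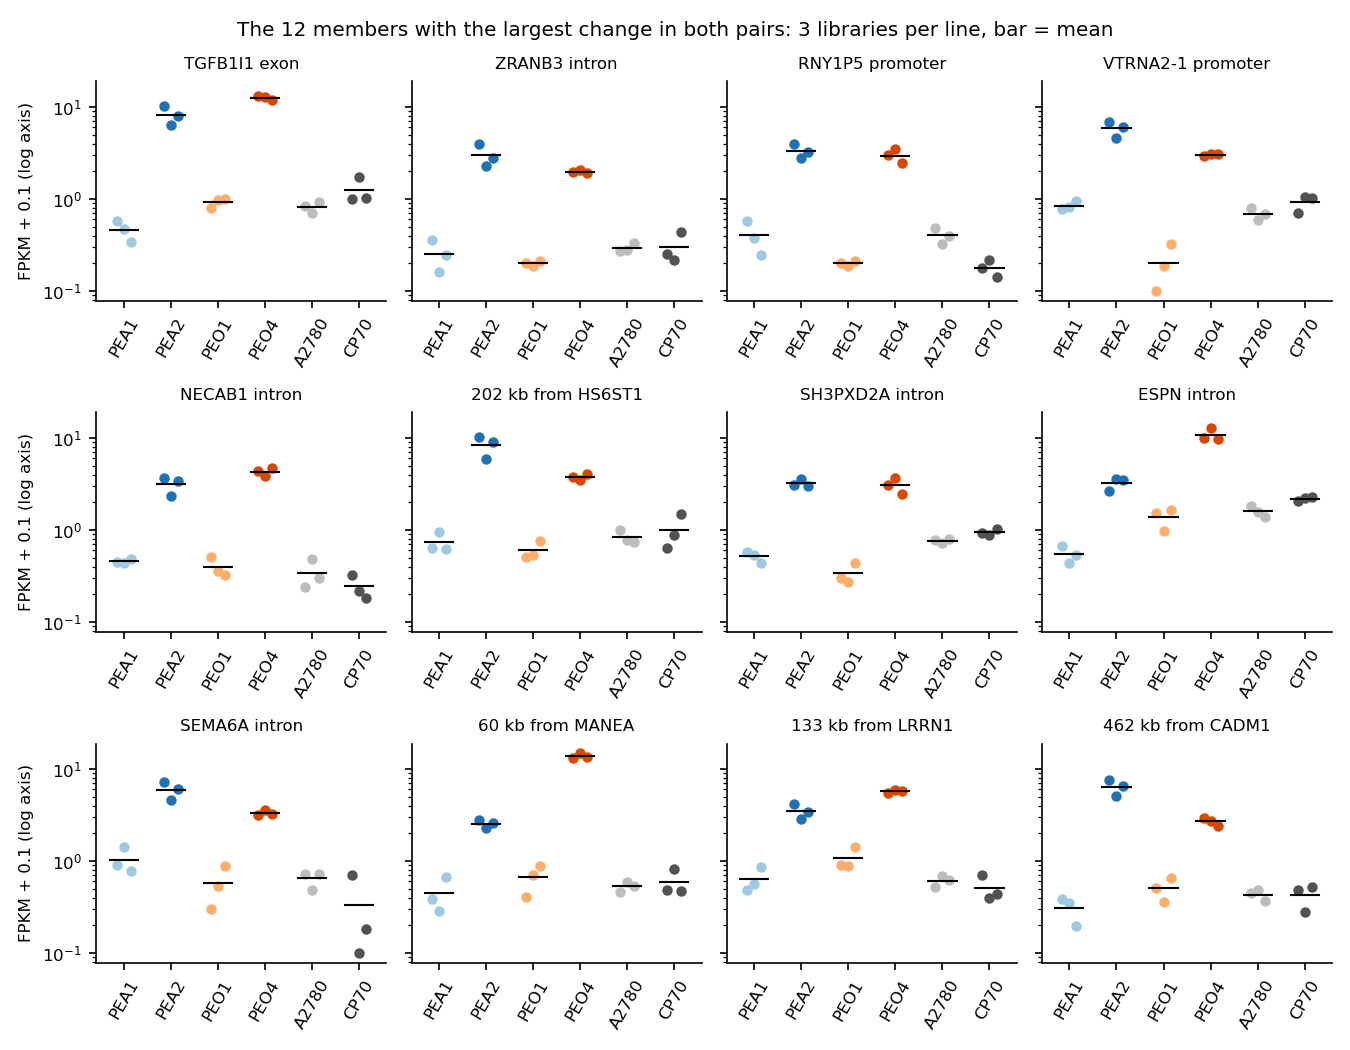
Each panel is 1 of the 12 members with the largest smaller fold change of the 2 pairs, and each point is 1 library, as FPKM + 0.1 on a log axis, with a bar at the mean of the line. PEA2 (dark blue) and PEO4 (dark orange) lie above their partners in every panel, which follows from how the windows were chosen. A2780 and CP70 (greys) lie below both in all 12.

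Few members were promoters. By the class of the window centre, 28 of 556 (5.04%) lay in a promoter, counted as the 1 kb before a protein-coding transcript start and the first 100 bp after it, against 18.9% of all windows. The intergenic class held 270 members (48.6% against 36.96% of all windows) and introns held 225 (40.5% against 37.2%). CpG-rich windows, with over 50% GC and a ratio of observed to expected CpG over 0.6, made up 4.86% of the members and 23.3% of all windows. The same order was found in the windows gained in 1 line only, with promoters at 7.05% and CpG-rich windows at 7.31% of those gained in PEA2 only, and 12.8% and 15.6% of those gained in PEO4 only. Median GC content was nevertheless that of the table, 50.2% in the members and 50.4% in all windows, between 46.7% in the windows gained in PEA2 only and 53.8% in those gained in PEO4 only. The median distance to a gene start was 52.9 kb in the members, 18.3 kb in all windows, 48.0 kb in the PEA2 set and 25.2 kb in the PEO4 set. Over 500 kb from any start lay 36 members (6.47%) and 3.93% of all windows. With every annotated basic transcript in place of protein-coding ones, 11.0% of the members and 24.6% of all windows were promoters. Neighbouring windows overlap and members adjoin each other, so these shares are given without a test.

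Of the promoter members, the one with the largest gain lay inside ESPN. This promoter of a shorter transcript at chr1:6507000-6508000 measured 0.449, 0.374 and 0.527 FPKM in PEA1 and 1.59, 2.49 and 1.95 in PEA2, and 0.809, 1.05 and 0.78 in PEO1 and 5.93, 6.05 and 5.73 in PEO4. It adjoined the intron member of the same gene, and neither pair overlapped. The promoter of CALHM3, an ion channel subunit, at chr10:105238800-105239800 measured 0.384, 0.498 and 0.623 in PEA1 and 2.53, 1.97 and 2.09 in PEA2. It was open already in PEO1, at 2.63, 2.88 and 3.12, and reached 9.19, 10.2 and 8.57 in PEO4. A promoter of TNK2, a non-receptor tyrosine kinase, at chr3:195603300-195604300, 31.6 kb from the main start of the gene, measured 0.737, 1.12 and 0.911 in PEA1 and 4.67, 4.34 and 3.59 in PEA2. In the PEO lines it measured 0.506, 0.873 and 0.446 in PEO1 and 1.8, 2.06 and 2.09 in PEO4, and the log2 fold changes were 2.07 and 1.56. The promoters of PLEKHS1 (log2 fold changes of 1.71 for PEA2 and 1.69 for PEO4), the anion transporter SLC26A7 (1.62 and 1.69), the receptor kinase GRK3 (1.46 and 1.46), ZSWIM2 (2.85 and 1.33) and the calcium pump ATP2A1 (1.40 and 1.28) completed the 8 with the largest smaller fold change. The windows of the surrounding 5 Mb had a median PEA log2 fold change above 0 at all 8, from 0.15 at SLC26A7 to 1.97 at ATP2A1. The 3 highest of these medians were 1.43 at PLEKHS1, 0.89 at GRK3 and 1.97 at ATP2A1. With that median removed, the smaller log2 fold change was 0.27 at PLEKHS1, 0.58 at GRK3 and -0.58 at ATP2A1.

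Motifs were counted on both strands as the share of windows with at least 1 match. RUNX (TGTGGT) was found in 56.5% of the members, 46.6% of all windows, 52.1% of the windows gained in PEA2 only and 50.7% of those gained in PEO4 only. AP-1 (TGANTCA) was found in 37.2% of the members and 38.3% of all windows, between 53.5% in the PEA2 set and 27.9% in the PEO4 set. Outside promoters the shares were 56.6% of members against 49.7% of all windows for RUNX and 37.5% against 43.2% for AP-1. Among the other 17 motifs the nuclear receptor motif (AGGTCA) was found in 53.1% of the members and 48.2% of all windows. NRF2 (TGACNNNGC) was found in 38.5% and 35.4%, and NFI (TTGGCA) in 43.9% and 41.1%. The windows gained in PEA2 only and in PEO4 only held the nuclear receptor motif in 52.0% and 51.5%. They held NRF2 in 36.1% and 36.8% and NFI in 43.9% and 44.9%. KLF/SP (GGGCGG) was found in 37.2% of the members and 45.6% of all windows, and ETS (CCGGAA) in 16.5% and 21.3%. Both are motifs of CpG-rich promoters. TEAD (GGAATG) at 46.4% and 45.8%, CTCF (CCACNAGG) at 17.1% and 16.7%, CEBP (TTGCNNAA) at 36.5% and 35.8% and SOX (AACAATG) at 12.6% and 12.3% differed by less than 1 percentage point. TFAP2 (GCCNNNGGC) was found in 37.2% of the members and 40.2% of all windows. The FOX motif (TGTTTAC) was found in 10.4% of the members and 11.7% of all windows, and the HNF1 motif (GTTAAT) in 22.1% and 24.8%. The letters AGATAA of the GATA motif were found in 32.9% of the members and 34.98% of all windows. The E-box (CACGTG) was found in 14.2% of the members and 14.97% of all windows. GRHL (AACNGGTT), POU (ATGCAAAT) and CRE (TGACGTCA) were each found in fewer than 8% of either. A CRE match contains no AP-1 match, whereas an AP-1 match can overlap an NRF2 match. A match says only that the letters are present, and 1 of the 12 members named above for their size held an AP-1 match.

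**Figure D4:**
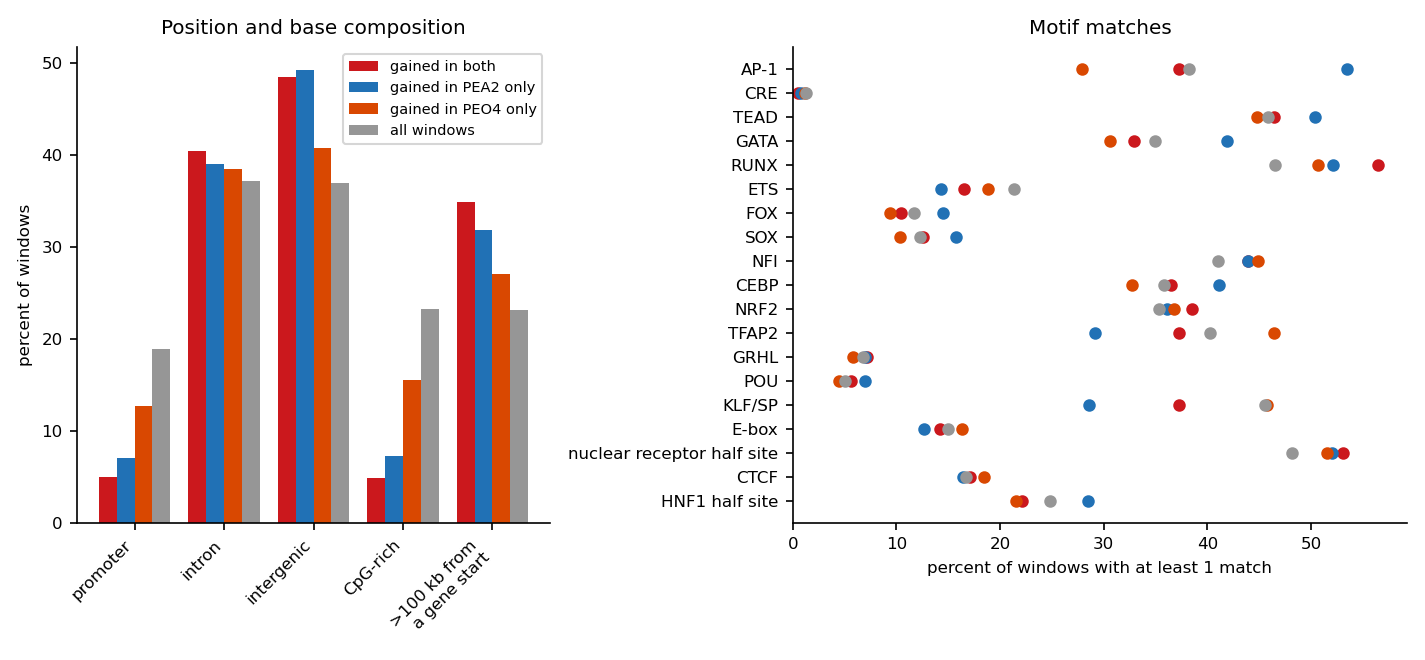
The left panel gives the percent of windows (y axis, from 0) in 3 genomic classes, CpG-rich, and over 100 kb from a gene start, for the members, the windows gained in PEA2 only or PEO4 only, and all windows. The right panel gives the percent of windows with at least 1 match to each of 19 motifs, in which the members (red) have the highest share for RUNX (56.5%) and lie between the single-line sets for AP-1 (37.2%).

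Members were mostly scattered. Adjoining members merged into 461 regions, of which 379 were a single window, 73 were 2 windows and 9 were 3 or more, with 7 at most. When members less than 50 kb apart were joined, 322 stood alone and 17 runs held 3 or more members, 66 in all. Chromosomes 2 (73 members), 6 (71), 8 (54), 5 (46) and 20 (41) held the most, and the share of the chromosome's windows was highest on chromosomes 6 (1.55%), 21 (1.42%) and 20 (1.40%) and lowest on 15 (0.134%). Members lay more often in regions where both pairs rose as a whole. Of the members, 215 (38.7%) were in 5 Mb bins with a median fold change above 0 in both pairs, against 12.8% of all windows, and part of this follows from the rule, which uses the same values.

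The run with the most members, 9 among 40 windows over 62.2 kb at chr20:60885000-60947200, lay in and around LAMA5, the gene of the laminin alpha 5 chain of basement membranes. Over these members the median level was 1.10 FPKM for PEA1 and 2.56 for PEA2, 1.42 for PEO1 and 4.04 for PEO4, and 0.989 for A2780 and 1.74 for CP70. Log2 fold changes of the members were 0.95 to 1.53 between the PEA lines, where the 5 Mb around had a median of 0.69, and 1.10 to 1.77 between the PEO lines, where it had a median of 0.95. The intronic run in SH3PXD2A, 6 members of 16 windows over 84.7 kb, reached 2.71 between PEA2 and PEA1 and 3.19 between PEO4 and PEO1, against medians of 0.79 and 0.02 in the 5 Mb around. CELF4, an RNA-binding splicing regulator, held 4 members of 17 windows in introns, and all 4 windows of a 35.2 kb stretch of MEGF6 were members. In CELF4 the PEO fold changes of 1.58 to 3.06 lay above the 5 Mb median of -0.29, whereas the PEA fold changes of 1.22 to 1.504 lay below the 5 Mb median of 1.63. At MEGF6 the median level went from 1.63 to 3.56 between PEA1 and PEA2 and from 2.76 to 9.71 between PEO1 and PEO4.

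The most adjoining members were the 7 windows at chr16:34980300-34986700, and these form a run of 5S ribosomal RNA pseudogenes. It held the starts of RNA5SP412, RNA5SP413, RNA5SP414, RNA5SP415 and RNA5SP417, and 5 of the 556 members (0.899%) held the start of a ribosomal RNA pseudogene against 0.0276% of all windows, a class that was counted after the values were seen. Over the 7 windows the median level was 0.440 FPKM for PEA1 and 2.59 for PEA2, and 0.374 for PEO1 and 2.48 for PEO4. A2780 (0.792) and CP70 (1.15) lay between. PEA log2 fold changes were 1.95 to 2.71 and PEO log2 fold changes 1.72 to 3.36, against medians of 1.28 and 0.003 in the 5 Mb around. PEO1 held 9 reads at most at any of these windows. Repeated sequence makes the placement of reads less certain, and in the reference 2.05% to 5.32% of the 21-base words of a window recurred in a window of the run that did not adjoin it. The run lies within 2 Mb of the unsequenced centromeric block of chromosome 16, and 24 members (4.32%) lay within 2 Mb of an assembly gap of at least 1 Mb against 2.09% of all windows, 2.80% of the PEA2 set and 0.989% of the PEO4 set.

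Few genes of the lists had a member nearby, as was so for protein-coding genes in general. None of the 16 homologous recombination and Fanconi genes, 12 nucleotide excision and translesion repair genes, 9 drug transport genes, 10 NRF2 and glutathione genes, 13 mesenchymal genes, 9 YAP and TEAD genes and 10 genes that the study discusses had a member within 100 kb of the start. Over all protein-coding genes with a window in reach, 721 of 18409 (3.92%) had one, so lists of this length would hold few or none at the overall rate. Over all lists 8 of 155 entries had a member within 100 kb (5.16%), a gene in more than 1 list being counted in each. In the TGF-beta list these were TGFB1I1 and TGFBI, 2 of 11 genes, with the windows given above. The window near JUNB, an AP-1 subunit, lay 16.5 kb from its start and was far more open in the PEO lines (8.41 FPKM in PEO1 and 18.4 in PEO4) than in the PEA lines (0.846 and 1.79). The promoter of KRT15, 5.76 kb from the start of the simple-epithelial keratin KRT19, went from 0.601 in PEA1 to 2.00 in PEA2, and stood at 4.76 in PEO1 against 10.8 in PEO4. Near IRF1, a transcription factor of the interferon response, 2 members lay 8.73 kb and 34.5 kb from the start, with PEA log2 fold changes of 1.18 and 1.32 and PEO log2 fold changes of 1.35 and 1.18. A member 4.96 kb from EMX2, a homeobox gene of the developing reproductive tract, stood at 1.06 in PEA1 against 3.43 in PEA2 and at 1.13 in PEO1 against 2.67 in PEO4. The receptor tyrosine kinase FGFR1 had 1 member 71.2 kb from its start, at 0.880 in PEA1 against 2.13 in PEA2 and at 1.04 in PEO1 against 2.11 in PEO4. ESPN was the only one of 14 actin and adhesion genes with members nearby.

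The pair that the rule did not use was A2780 and CP70. Its values were read for whether the windows gained in both clinical pairs were also more open in the line made resistant in culture. They were low in both lines, with a median level of 0.511 FPKM in A2780 and 0.610 in CP70. Over all windows these medians were low too, at 0.683 and 0.852. Over 1.5 FPKM were 18 members (3.24%) in A2780 and 73 (13.1%) in CP70, against 19.7% and 33.0% of all windows. Every window of the table had to exceed 2 FPKM in at least 2 libraries. Members could do so in PEA2 or PEO4, and other windows in A2780 or CP70. Lower levels and fewer CP70 gains at the members may thus follow in part from this filter, which was not tested. The median log2 fold change over the 556 members was 0.22, against 0.30 over all windows, and 377 members (67.8%) were above 0 against 70.3% of all windows. All 3 CP70 libraries were above all 3 A2780 libraries at 116 members (20.9%), where 31.1% of all windows were, and below them at 48 members (8.63%), where 7.17% of all windows were. CP70 libraries had fewer reads than A2780 libraries, with a median of 7 to 15 reads against 22 to 31 at the members, and between 37 and 100 members held 3 reads or fewer in a CP70 library.

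**Figure D5:**
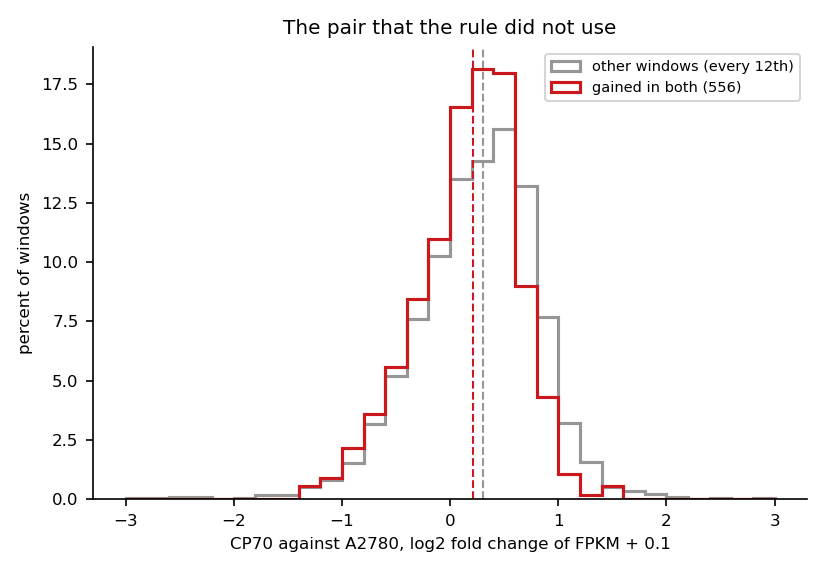
The x axis is the log2 fold change of FPKM + 0.1 between CP70 and A2780 and the y axis the percent of windows in bins of 0.2, for the 556 members (red) and every 12th other window (grey), with values beyond 3 in size placed in the end bins. Dashed lines mark the medians, 0.22 for the members, and the members lie close to the other windows, slightly to their left.

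With limma, 123 members had a mean above 1 FPKM over the 6 libraries and were tested among 37128 windows, and 433 were too low to be tested. By the thresholds of the study (log2 fold change over 2 in size and adjusted p under 0.001), limma called 0 members higher, where 0.428% of the windows tested were called, and 0 lower, where 0.369% were. edgeR on the recovered reads also called 0, while 61 members (49.6%) had an unadjusted limma p under 0.05, where 59.1% of the windows tested did. Without the limit on size, at adjusted p under 0.05, 49 members (39.8%) were higher in CP70, where 47.5% of the windows tested were, and 1 (0.813%) was lower, where 2.29% were. The whole pair was shifted, since the median log2 fold change was 0.59 over all windows tested and 0.51 over the members tested. Once each library was centred on its median, 6 members were higher and 8 lower, where 6.08% and 9.07% of windows were, so the direction of most calls is relative to that shift. The 49 calls fell to 15 (11.1%) without replicate 3 of A2780 and to 25 (18.1%) without its replicate 2, and the share of all windows tested that were called higher fell to 17.8% and 35.7% in the same fits.

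The largest called difference in CP70 was in DIDO1. An intron of DIDO1, a chromatin-associated PHD-finger gene, at chr20:61531200-61532200 measured 1.39, 1.26 and 1.19 FPKM in A2780 and 4.55, 3.41 and 3.35 in CP70, so CP70 was higher by 1.47 on the log2 scale with SE 0.26 (limma, adjusted p = 7.84e-07). PEA2 and PEO4 were at 3.24 ± 0.388 and 2.6 ± 0.561 (SD, n = 3) there. A promoter of DDR1, a receptor tyrosine kinase for collagen, at chr6:30850200-30851200 measured 1.01, 0.631 and 0.76 in A2780 and 2.65, 2.33 and 1.88 in CP70, a difference of 1.42 with SE 0.26 (limma, adjusted p = 1.13e-06). The DDR1 window was thus higher in every resistant library of all 3 pairs. This follows from its choice by the rule in the PEA and PEO pairs and by the call in CP70. PEA1 stood at 1.12 to 1.44 against 2.88 to 3.57 for PEA2, and PEO1 at 3.54 to 4.01 against 7.27 to 8.49 for PEO4. In the PEO pair the surrounding 5 Mb had a median log2 fold change of 1.23, above the 1.06 of the DDR1 window. In the PEA pair that median was -0.81, below the 1.24 of the DDR1 window. An intron of DNM3, a dynamin of membrane fission, at chr1:172320300-172321300 was higher by 1.40 with SE 0.25 (limma, adjusted p = 1.04e-06). The promoter of ZSWIM2 was higher by 1.23 (limma adjusted p = 6.63e-05), and the window 7.81 kb from TNFRSF14, a receptor of the tumour necrosis factor family, by 1.20 (limma adjusted p = 6.23e-05). The promoter of RCOR2, a corepressor that works with histone demethylases, measured 2.32, 2.79 and 1.85 in A2780 and 7.2, 4.19 and 4.98 in CP70 and was higher by 1.18 with SE 0.29 (limma, adjusted p = 0.000442). When the median of each 5 Mb bin was removed, DIDO1, DDR1, ZSWIM2, TNFRSF14 and RCOR2 lost their call (limma adjusted p from 0.114 to 0.769) and DNM3 kept it (0.0249). TNFRSF14 and RCOR2 also lost it when a fit on GC content was removed (limma adjusted p = 0.142 and 0.281).

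The only member called lower in CP70 was an intron of WNT6, a secreted WNT ligand, at chr2:219725100-219726100. A2780 libraries measured 2.09, 2.07 and 1.55 FPKM and CP70 libraries 1.06, 0.838 and 1.3, with a fitted difference of -0.79 on the log2 scale and SE 0.25 (limma, adjusted p = 0.00749). All CP70 libraries were below all A2780 libraries, while PEA1 measured 1.38, 1.59 and 1.01, PEA2 2.8, 2.95 and 2.75, PEO1 2.33, 3.66 and 2.9 and PEO4 5.29, 6.86 and 6.03. Without replicate 2 of A2780 the difference was -0.73 and the limma adjusted p 0.0515, so the call was lost. With each library centred on its median the difference was -1.37 (limma adjusted p = 1.82e-05), and it was -1.26 with quantile normalization, -1.31 with the 5 Mb median removed and -1.35 with the GC fit removed.

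Values ran without a gap across the thresholds. The members with the lowest PEA2 level were near HS6ST1 (1.5003 FPKM) and near EMB (1.506), and the windows just outside were near UBE2E3 (1.497) and CNTN4 (1.496). The lowest PEO4 levels were 1.503 near HES1 and 1.505 near ZFPM1, with 1.497 near SLC5A2 and near EDN1 just outside. The smallest ratios of PEA2 to PEA1 inside were 2.003 and 2.007 and the largest outside 1.997 and 1.992. The smallest PEO ratios inside were 2.00002 and 2.0004, and of the windows just outside, one, with 5.36 FPKM in PEO1 and 10.7 in PEO4, lay in the SH3PXD2A run. When all 18 libraries, those of A2780 and CP70 included, were scaled to a common median, 372 windows met the rule. Among them were 222 of the 556 members (39.9%).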

How the data were processed

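ATAC-seq libraries of 6 cell lines (3 each) were analysed. The authors aligned paired reads to hg19 (GRCh37) with Bowtie2, removed duplicates with Picard, counted uniquely aligned reads per window with featureCounts and deposited FPKM values (rpkm function, edgeR), the tool names being from the submitters' processing notes and the study's methods. Versions, and any shift of read ends for the transposase, were not given in the sources used here. Windows are 1001 bp long and start every 900 bp, so neighbours share 101 bp, and the deposited FPKM equals RPM (reads scaled to library size) up to a constant, as the authors deposited it. Every window of the table exceeds 2 FPKM in at least 2 of the libraries. Values were whole multiples of 1 read (within 0.01), which gave reads and library totals (the smallest value of A2780 replicate 1 stood for 2 reads). Limits from reads cover counting error only.

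The members, gene lists, motifs and rules for named windows were chosen with earlier results of these data known. Named windows were the 12 members with the largest smaller fold change of both pairs (1 per 10 kb), up to 8 promoters, the 6 runs with most members, up to 6 called in each direction in CP70, and those beside the thresholds. Fold changes are log2(FPKM + 0.1) and understate changes of low windows. PEA and PEO values were not tested, since they chose the members. CP70 was compared with A2780 by limma 3.58.1 (R 4.3.3, eBayes with trend in place of the study's voom weights, Benjamini-Hochberg adjustment), with edgeR 4.0.16 on recovered reads as an alternative. The test was tested on simulated data. Classes came from GENCODE 44 on GRCh37. Features were computed in Python 3.11.15 with numpy 2.4.6 and pandas 2.3.3.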

Additional observations from a re-analysis of the deposited data

Results flagged for a closer look

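At 48 members every PEA2 and PEO4 library lay above every library of its partner while every CP70 library lay below every A2780 library. These are 8.63% of the members, near the 7.17% of all windows on chromosomes 1 to 22 at which CP70 lay below A2780 in this way, so the count is no result about the members. At 34 of the 48 at least 1 CP70 library held 3 reads or fewer. The difference between the pairs was not tested, since the members were chosen on the PEA and PEO values.

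The WNT6 intron window is 1 of these 48, and the only one called lower by limma at adjusted p under 0.05. Its log2 fold change on the line means was -0.78 between CP70 and A2780, against 1.04 between PEA2 and PEA1 and 1.01 between PEO4 and PEO1. The difference between pairs was not tested here either.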

How the results depend on the processing

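The number of windows that met the rule was 556 and became 339 with quantile normalization (220 of them members), 1428 at a fold of 1.5, 161 at a fold of 3, 863 at a level of 1 FPKM and 319 at a level of 2 FPKM. It ranged from 549 to 637 when replicate 1, 2 or 3 of the 4 lines was left out. Scaling to the median, removal of the 5 Mb bin medians (412 windows, 269 of them members), removal of a GC fit (674, 411 of them members), the demand for no overlap and a limit on depth kept the count within 1.5 times. CP70 against A2780 at adjusted p under 0.05 gave 49 members higher and 1 lower. Shares below are of members, then of all windows tested. With no filter on low values 52 were higher (9.35% against 17.7%) and 15 lower (2.70% against 3.17%). With a minimum mean of 2 FPKM, where 16 members remained, 7 were higher (43.75% against 49.0%) and 0 lower (against 1.01%). Median centring gave 6 higher (4.88% against 6.08%) and 8 lower (6.50% against 9.07%). Quantile normalization gave 7 higher (5.69% against 10.1%) and 7 lower (5.69% against 11.0%). Removal of bin medians gave 1 higher (0.813% against 1.73%) and 4 lower (3.25% against 3.29%). Removal of the GC fit gave 4 higher (3.25% against 3.59%) and 3 lower (2.44% against 5.17%). Leaving out 1 library gave 15 to 59 higher and 0 to 1 lower. Without replicate 1 of A2780 the share called higher was 39.2% of members against 33.5% of windows tested. Without replicate 1 of CP70 it was 47.6% against 41.5%. When any other library was left out, the share of members lay below that of windows tested. The cause of these changes was not tested. By the study's thresholds the calls stayed at 0 in both directions in every alternative run. With all basic transcripts, promoters were 11.0% of members, intergenic windows 30.6% and introns 49.8%. The AP-1 share of the members minus that of all windows was -1.0 percentage points over all windows and -5.7 outside promoters. Within 50 kb, 394 protein-coding genes had a member. The ATP2A1 promoter reversed to -0.58 with the bin median removed, and SLC26A7 fell from 1.62 to 0.76 with the GC fit removed and to 1.04 with quantile normalization, PLEKHS1 from 1.69 to 0.98 with the GC fit removed and GRK3 from 1.46 to 0.94 with median scaling. Replicate numbers do not pair the libraries (deviations of same-numbered A2780 and CP70 libraries correlated at -0.41, -0.17 and -0.04). Correlations of differently numbered ones ranged from -0.38 to 0.43. The fit with the replicate number as a block called 43 members higher (34.96% against 39.9% of windows tested) and 1 lower (0.813% against 2.08%). Depth limits the PEO1 and CP70 levels, where many members hold few reads.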

Other observations

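The X chromosome was outside the rule. Of its 2460 windows 375 met the PEA condition and 58 the PEO condition, and 0 met both. Besides the vault RNA and the ribosomal RNA pseudogenes, 3 members held the start of a microRNA gene (0.540%, against 0.324% of all windows), among them MIR4277 (1.02 FPKM for PEA1 and 2.93 for PEA2, 0.543 for PEO1 and 1.64 for PEO4) and MIR5189 (1.11, 2.79, 0.538 and 1.505 in the same order), and these windows were chosen after their values were seen.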
